A study of Mus musculus with 3 samples.

Results

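A set of 10 genes of the cornified cell envelope was followed across 3 epidermal transcriptomes: the transglutaminases Tgm1, Tgm2, Tgm3 and Tgm5, the scaffold genes Evpl, Ppl and Scel, and the genes of the secreted keratinocyte proteins Krtdap, Sbsn and Dmkn. They were taken by symbol from a list, with no threshold on their values, and all 10 were measured among the 24011 genes with a symbol. The arrays came from TNF KO mice (TNF-/-), cFLIP KO mice (cFLIP fl/fl with K14CreERtam) and mice with both defects (cFLIP KO/TNF KO, that is TNF-/- and cFLIP fl/fl with K14CreERtam, here the double KO). They address whether the epidermal changes that follow loss of cFLIP, an inhibitor of caspase-8 encoded by Cflar, differ when TNF is missing. The mice were adult. All were epilated and received topical tamoxifen on the back, the skin was taken at 72 h, and epidermal RNA of several animals was pooled into 1 array per genotype. The K14 promoter drives the tamoxifen-dependent Cre in basal keratinocytes and the cells they give rise to, whereas TNF was missing in every cell of the TNF-/- mice. Whether the TNF KO mice carried Cre or floxed alleles was not stated in the sources used, nor was an age in weeks, and no wild-type array was analysed here. The TNF KO and double KO arrays thus both lack TNF, and the cFLIP KO array differs from the TNF KO array in both genes.

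With 1 array per genotype no difference has a replicate check, and no test, standard deviation or p-value can be given. "Higher" and "lower" describe these 3 arrays only. Values are log2 array signals, on which 1 unit is 2-fold. Since probes differ in brightness, the signal of a gene was compared between arrays, and a bright signal is not read as a higher level of RNA than that of a dimmer gene.

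The cornified envelope is the cross-linked protein shell that replaces the plasma membrane of keratinocytes as they die at the skin surface. Envoplakin and periplakin are laid down first, beneath the membrane and at desmosomes. Calcium-dependent transglutaminases then join them and later substrates such as involucrin, loricrin and the small proline-rich proteins by isopeptide bonds, and ceramides are attached to the outside of the shell.

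The targeted genes were read first. Cflar signal was 7.0 (TNF KO), 6.29 (cFLIP KO) and 6.53 (double KO), so it was lowest where cFLIP was deleted, but by less than 2-fold. Tnf signal was 5.11, 5.79 and 5.21 in the same order and was highest in cFLIP KO, the genotype with intact Tnf. The arrays also differed in spread. The standard deviation over genes was 1.77 in cFLIP KO against 2.06 in TNF KO and 2.04 in the double KO, and bright genes were lower in cFLIP KO as a body. Among the 4213 genes at least as bright as the dimmest of the 10, the median difference was -0.73 between cFLIP KO and TNF KO and 0.00 between the double KO and TNF KO, although the median over all genes was 0.00 in both. The TNF KO and double KO arrays gave the same deposited value for 12618 of the 24011 genes, but for none of the 10. Differences after subtraction of a smooth trend of the difference on signal are therefore given beside the deposited ones. This trend lay between -0.81 and -0.34 at the 10 genes for cFLIP KO against TNF KO, and between -0.09 and 0.00 for the double KO against TNF KO.

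In cFLIP KO epidermis 6 of the 10 genes were at least 2-fold below TNF KO, namely Tgm5, Evpl, Ppl, Scel, Sbsn and Dmkn. Tgm2 was at least 2-fold higher, and Tgm1, Tgm3 and Krtdap were lower by less than 2-fold. Of all genes, 9.15% were at least 2-fold lower and 3.88% at least 2-fold higher in this comparison. Of the genes at least as bright as the dimmest of the 10, however, 36.6% were at least 2-fold lower. These are called the genes as bright as the 10. They are a nearer background but not a matched one. The cut is the mean signal of Tgm2 (6.86), and the others of the 10 had means of 8.02 or more. The median difference of the 10 was -1.29. With the signal trend subtracted, 3 genes (Tgm5, Ppl and Scel) remained at least 2-fold lower, against 4.95% of all genes, and the median was -0.56.

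**Figure D1:**
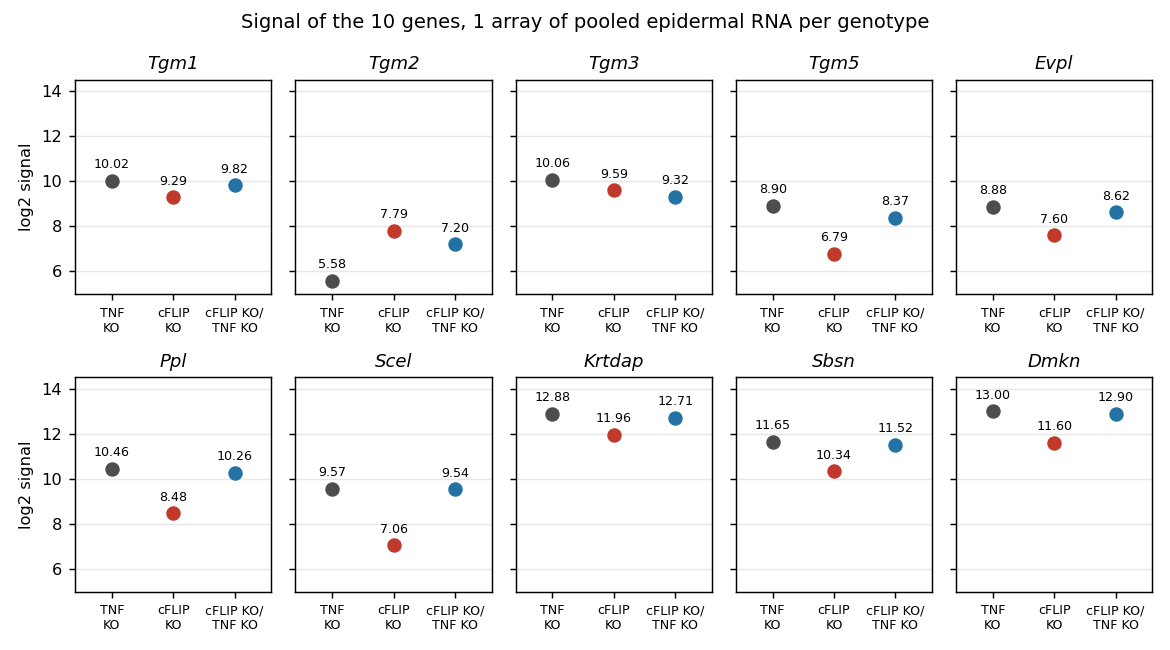
Log2 signal (vertical axis) of each of the 10 genes on the TNF KO, cFLIP KO and double KO array (horizontal axis), 1 point per array of pooled RNA. In 8 panels the cFLIP KO point is the lowest, Tgm2 is lowest in TNF KO (5.58) and Tgm3 is lowest in the double KO (9.32).

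When TNF was also missing, most of the 10 genes lay close to their TNF KO level. In the double KO none was at least 2-fold below TNF KO, where 0.225% of all genes were, and Tgm2 was the 1 gene at least 2-fold higher, where 0.629% of all genes were. The median difference was -0.18, against 0.00 over all genes. Closeness to TNF KO was common here, since 12618 of the 24011 genes had the same value on both arrays. All of the 10 but Tgm2 lay below TNF KO. From 0.512% (Tgm3) to 18.6% (Scel) of all genes had a lower difference than these did. Set against the double KO, cFLIP KO had the same 6 genes lower by at least 2-fold, with a median of -1.10 over the 10, beside 8.07% of all genes and 31.9% of the genes as bright. After trend subtraction 3 of them (Tgm5, Ppl and Scel) were at least 2-fold lower in that comparison, beside 4.01% of all genes. As deposited, the order TNF KO, then the double KO, then cFLIP KO held for 8 of the 10 genes, against 12.4% of all genes and 43.5% of the genes as bright. For Tgm1 this order depended on the scaling. Its difference between cFLIP KO and the double KO was -0.53 as deposited and 0.16 after trend subtraction. The 3 comparisons share arrays and are not independent of each other.

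**Figure D2:**
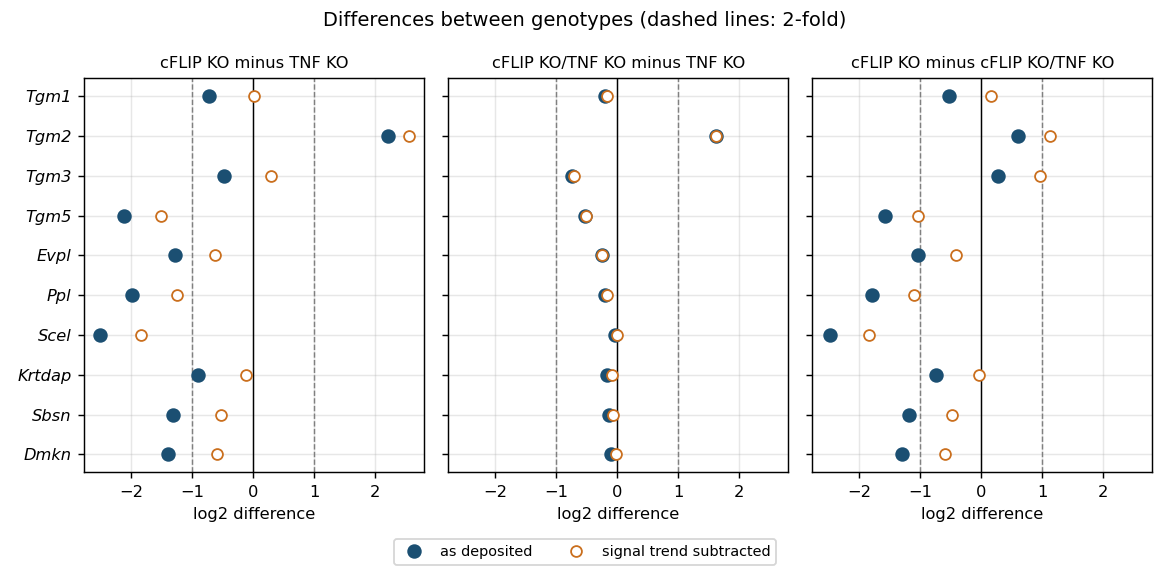
Log2 difference (horizontal axis) of each gene in the 3 comparisons, as deposited (filled) and after subtraction of the signal trend (open), with 2-fold marked by dashed lines. In the cFLIP KO comparisons Scel, Ppl and Tgm5 stay beyond 2-fold on both scales, whereas Evpl, Sbsn and Dmkn do so only as deposited.

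Tgm1 encodes the membrane-anchored transglutaminase of keratinocytes, whose loss causes lamellar ichthyosis in humans. Its signal was 10.02 (TNF KO), 9.29 (cFLIP KO) and 9.82 (double KO). Against TNF KO, Tgm1 stood at -0.73 in cFLIP KO as deposited, equal to the median of the genes as bright as the 10. This value depended on the scaling. It became 0.02 after trend subtraction and -0.07 after repeated quantile normalization. Under Actb scaling it stayed at -0.69, and under reference gene scaling it was -0.46. In the double KO, Tgm1 stood at -0.20 as deposited. What lies behind the lower Tgm1 signal in cFLIP KO was not tested.

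Tgm5, which in humans is mutated in acral peeling skin syndrome, was the transglutaminase with the largest deficit in cFLIP KO. Its signal was 8.90 (TNF KO), 6.79 (cFLIP KO) and 8.37 (double KO). The cFLIP KO array was thus 4.31-fold below TNF KO and 3.00-fold below the double KO, with differences of -1.5 and -1.03 after trend subtraction. The double KO array was 1.44-fold below TNF KO. Its chromosomal neighbours Epb42 and Tgm7, which belong to the same gene family, differed by 0.10 and 0.00 between cFLIP KO and TNF KO at low signals of 3.55 and 3.75 in TNF KO.

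Tgm3 encodes the cytosolic epidermal transglutaminase, which also cross-links trichohyalin in the inner root sheath of the hair follicle. Its signal was 10.06 (TNF KO), 9.59 (cFLIP KO) and 9.32 (double KO), and it was the 1 gene of the 10 that was lowest in the double KO. This order was found for 0.637% of all genes and for 0.475% of the genes as bright. The differences of -0.47 and -0.74 from TNF KO were both under 2-fold, and the first became 0.29 after trend subtraction, so that its direction between cFLIP KO and TNF KO depends on the scaling. Most markers of the inner root sheath had the same order. Of 10 such markers 6 were highest in TNF KO and lowest in the double KO, and their mean log2 signal was 6.67, 5.70 and 5.15 in TNF KO, cFLIP KO and the double KO. Krt71, a keratin of that sheath, was at 9.25, 5.95 and 4.97, and Tchh, which encodes trichohyalin, at 8.73, 6.69 and 5.03. In cFLIP KO 4 of the 10 markers lay at least 2-fold below TNF KO, and in the double KO 5 did, beside 9.15% and 0.225% of all genes. The others were not uniformly lower, with Krt72 at 0.30 and Padi3 at 0.10 in cFLIP KO and Gata3 at 0.00 in the double KO. Their part in the Tgm3 result was not tested, and in pooled tissue fewer cells of a type cannot be told apart from less RNA per cell.

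Tgm2, the tissue transglutaminase of many cell types including macrophages and endothelial cells, went the other way. Its signal was 5.58 (TNF KO), 7.79 (cFLIP KO) and 7.20 (double KO). Both cFLIP-deficient arrays were therefore above TNF KO, by 4.64-fold and 3.07-fold. The cFLIP KO array was 1.51-fold above the double KO, a gap that widened from 0.60 to 1.13 after trend subtraction. The differences from TNF KO were at least 2-fold with and without the trend (2.55 and 1.62 after subtraction).

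Most macrophage markers were also above TNF KO on both cFLIP-deficient arrays. Of 14 measured, 10 were higher on both by any amount, which includes Ccr2 at 0.02 and Cd163 at 0.05 in cFLIP KO. The share of all genes higher on both was not counted, so this count has no background. Rises of 2-fold or more were seen for 3 markers in cFLIP KO and 5 in the double KO, beside 3.88% and 0.629% of all genes. The mean log2 signal of the 14 was 6.07, 6.55 and 6.88 in TNF KO, cFLIP KO and the double KO. Fcgr1, an Fc receptor of macrophages, was at 5.29, 6.73 and 6.86, and the mannose receptor Mrc1 at 7.93, 9.19 and 9.75. Cd68 (7.05, 8.01 and 7.73) and Itgam (6.16, 7.67 and 7.03) were highest in cFLIP KO, as Tgm2 was. These 4 had the largest differences of the list in cFLIP KO. Other macrophage markers did not rise there, with Adgre1, Csf1r, C1qc and Mertk each at 0.00 against TNF KO. Mertk was at 4.99 on every array. The order of the 2 cFLIP-deficient arrays over the list depended on the scaling, with a median difference between cFLIP KO and the double KO of -0.23 as deposited, 0.33 under Actb scaling and 0.14 under reference gene scaling. None of 10 endothelial markers was 2-fold different from TNF KO on either array. That count is near the shares of all genes at least 2-fold higher (3.88% and 0.629%). Their mean signal was 4.45, 4.66 and 4.52. Smaller rises were seen for Pecam1 (0.55 in cFLIP KO and 0.51 in the double KO) and Kdr (0.65 and 0.24), but not for Tek (0.00 in both) or Esam (0.02 and -0.03). The part of macrophage or endothelial RNA in the Tgm2 signal was not tested.

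Evpl and Ppl encode envoplakin and periplakin, the plakins that dimerise to form the first scaffold of the envelope. Evpl signal was 8.88 (TNF KO), 7.60 (cFLIP KO) and 8.62 (double KO). Ppl signal was 10.46, 8.48 and 10.26 in the same order. Both were lowest in cFLIP KO, by 2.43-fold and 3.95-fold against TNF KO, and within 1.19-fold and 1.15-fold of TNF KO in the double KO. They parted after trend subtraction, where Evpl was at -0.62 and Ppl at -1.24 in cFLIP KO against TNF KO. Srp68, which lies beside Evpl on chromosome 11 and encodes a subunit of the signal recognition particle, differed by -1.10 in that comparison, close to Evpl itself at -1.28.

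Scel encodes sciellin, a precursor of the envelope with a LIM domain, and had the largest deficit of the 10. Its signal was 9.57 (TNF KO), 7.06 (cFLIP KO) and 9.54 (double KO). The cFLIP KO array was 5.70-fold below TNF KO and 5.57-fold below the double KO, and 0.529% of all genes had a lower difference from TNF KO than Scel. The TNF KO and double KO arrays differed by 1.02-fold. With the trend subtracted the cFLIP KO differences were -1.84 against either array.

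**Figure D3:**
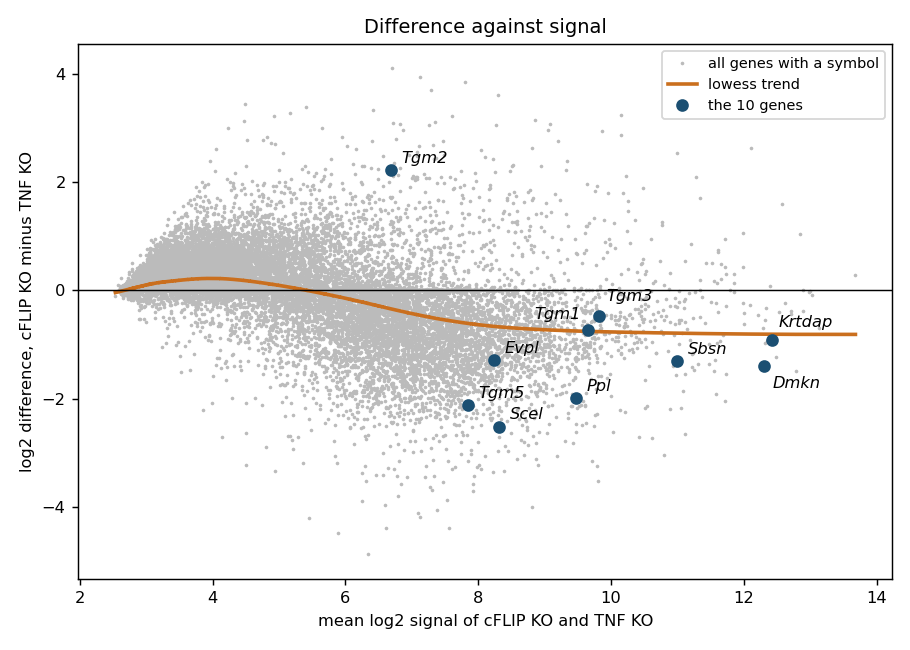
Log2 difference between cFLIP KO and TNF KO (vertical axis) against the mean log2 signal of the 2 arrays (horizontal axis) for all genes with a symbol (grey), the 10 genes (blue) and the lowess trend (line). Tgm1 and Krtdap lie near the line, Scel, Tgm5 and Ppl lie below it, and Tgm2 lies above it at 2.21.

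Sbsn, Dmkn and Krtdap encode suprabasin, dermokine and keratinocyte differentiation-associated protein, secreted products of suprabasal keratinocytes. They stand side by side on chromosome 7 in the order Sbsn, Dmkn, Krtdap. Sbsn signal was 11.65 (TNF KO), 10.34 (cFLIP KO) and 11.52 (double KO). Dmkn signal was 13, 11.60 and 12.90, and Krtdap signal 12.88, 11.96 and 12.71. All 3 were lowest in cFLIP KO, by 2.48-fold, 2.64-fold and 1.88-fold against TNF KO, and all lay within 1.12-fold of TNF KO in the double KO. After trend subtraction the differences were -0.52, -0.59 and -0.11, each under 2-fold. The genes directly beside the 3 did not share the pattern on these arrays: Gapdhs, before Sbsn, was at 6.36 on every array, and Ffar2, after Krtdap, was at 3.03, 3.05 and 3.03. Ffar2 lay below the 25th percentile of all values (3.17), where a fall could hardly be seen. The next gene out beyond Gapdhs, Tmem147, shared the pattern, with differences of -1.20 in cFLIP KO and -0.24 in the double KO.

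The promoters of these 3 neighbours and of Scel are shown because each held the letters TGANTCA. This is a loose form of the recognition sequence of AP-1 factors, with any middle base. AP-1 factors are known regulators of genes of differentiating keratinocytes. The RefSeq promoter table (GRCm38.p6, 250 bases before to 50 after each start) held 7 of the 10 genes in 10 windows. All windows printed lie on the + strand, run 5′ to 3′ and have the matched letters in capitals: Sbsn at chr7:30751221-30751520, Dmkn at chr7:30763506-30763805, an internal Dmkn start at chr7:30776155-30776454, Krtdap at chr7:30787655-30787954 and Scel at chr14:103513091-103513390.
Sbsn: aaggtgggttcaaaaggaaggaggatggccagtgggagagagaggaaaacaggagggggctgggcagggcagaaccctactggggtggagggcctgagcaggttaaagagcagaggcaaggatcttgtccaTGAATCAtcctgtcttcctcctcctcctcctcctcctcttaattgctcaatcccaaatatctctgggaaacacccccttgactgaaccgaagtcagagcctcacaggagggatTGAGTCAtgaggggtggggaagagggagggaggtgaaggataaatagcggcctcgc
Dmkn: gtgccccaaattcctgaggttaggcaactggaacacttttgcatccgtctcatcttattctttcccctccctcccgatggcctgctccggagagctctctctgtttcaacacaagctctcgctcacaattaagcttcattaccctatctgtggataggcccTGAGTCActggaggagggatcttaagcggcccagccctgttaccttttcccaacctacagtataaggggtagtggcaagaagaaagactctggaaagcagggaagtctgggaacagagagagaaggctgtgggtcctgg
Dmkn, internal start: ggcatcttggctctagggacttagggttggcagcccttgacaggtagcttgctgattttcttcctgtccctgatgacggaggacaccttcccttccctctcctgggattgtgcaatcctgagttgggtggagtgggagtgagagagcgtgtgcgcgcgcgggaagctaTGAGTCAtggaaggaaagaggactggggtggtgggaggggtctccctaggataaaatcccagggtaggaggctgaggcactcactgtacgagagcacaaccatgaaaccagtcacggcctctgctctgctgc
Krtdap: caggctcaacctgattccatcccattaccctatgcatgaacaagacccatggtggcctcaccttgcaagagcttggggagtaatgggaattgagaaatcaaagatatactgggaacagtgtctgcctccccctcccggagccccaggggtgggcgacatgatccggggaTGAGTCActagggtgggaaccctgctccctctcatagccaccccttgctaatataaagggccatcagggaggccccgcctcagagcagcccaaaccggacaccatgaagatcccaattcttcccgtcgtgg
Scel: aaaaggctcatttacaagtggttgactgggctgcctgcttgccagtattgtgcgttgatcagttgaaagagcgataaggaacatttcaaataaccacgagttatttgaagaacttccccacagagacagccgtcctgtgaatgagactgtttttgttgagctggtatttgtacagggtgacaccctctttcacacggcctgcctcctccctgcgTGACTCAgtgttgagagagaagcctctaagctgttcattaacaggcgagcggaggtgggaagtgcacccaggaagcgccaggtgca

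The letters lay 119 and 6 bases before the Sbsn start, 89 bases before the first Dmkn start, 82 before the internal one, 81 before that of Krtdap and 36 before that of Scel. The position was thus within 8 bases in 3 windows of neighbouring genes. TGANTCA, which reads the same on both strands but for its middle base, was found in 4 of the 7 genes, against 2425 of the 27025 genes in the table (8.97%), and in 7.81% of its 32851 windows. The Tgm1, Tgm3 and Tgm5 windows held none. The match 119 bases before the Sbsn start reads TGAATCA, and the other matches have C or G in the middle. Of 5 other motifs searched on both strands, TATAAA lay 30 bases before the Krtdap start and 28 before the Tgm3 start (15.7% of genes), CCACACC was in Tgm3 and Tgm5 (8.72%), GGGCGG in Tgm1 (38.2%), CANNTG in 4 of the 7 genes (75.0%) and AACCGGT in none (1.17%). No TGANTCA match overlapped a match of another motif in these windows. Across the array, 8.73% of the 1523 measured genes with TGANTCA in a promoter window were at least 2-fold below TNF KO in cFLIP KO, and 9.90% of the 16552 without it. The genes with the letters were also dimmer, with a median signal of 3.75 against 4.39, and the shares were not matched for signal. A match is a run of letters and no evidence of binding.

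**Figure D4:**
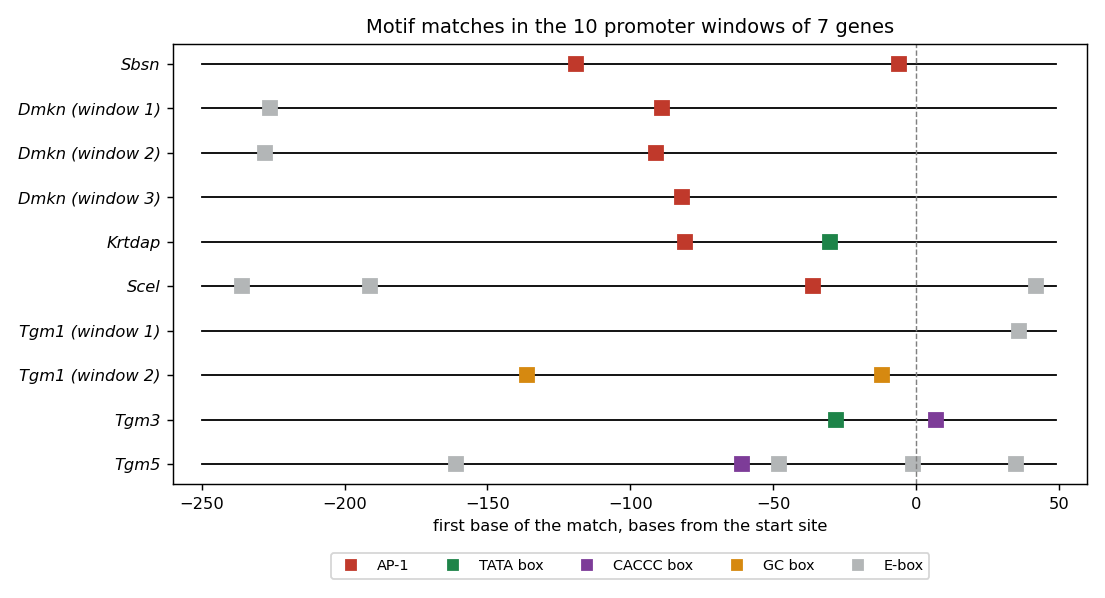
First base of each motif match (squares, by motif) in the 10 promoter windows of 7 genes, in bases from the start site (horizontal axis, start site dashed). The letters TGANTCA, labelled AP-1, appear in Sbsn, Dmkn, Krtdap and Scel, between 119 and 6 bases before the start, and in no window of Tgm1, Tgm3 or Tgm5.

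The rest of the envelope was read through lists of related genes, whose counts stand against 9.15% of all genes and 36.6% of the genes as bright as the 10 that were at least 2-fold below TNF KO in cFLIP KO. The share of all genes was 4.95% after trend subtraction and 0.225% in the double KO. Of 37 measured envelope substrates, 22 were at least 2-fold below TNF KO in cFLIP KO and 1 was above it by that much, with a median of -1.60, or 18 lower and a median of -0.88 after trend subtraction. In the double KO 8 of the 37 were at least 2-fold below TNF KO, with a median of -0.45, whereas none of the 10 genes was. The late cornified envelope gene Lce1e was furthest from 0, at -4.87 in cFLIP KO and -1.06 in the double KO. Rptn, which encodes repetin, was at -3.52 and -1.08, and Lce3e at -3.32 and -2.70.

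The genes that build and attach the lipid envelope, to which Tgm1 contributes, were lower almost throughout. Of 15 measured, 14 were at least 2-fold below TNF KO in cFLIP KO, with a median of -1.80, and none was in the double KO, with a median of -0.50. Pnpla1, an acyltransferase of acylceramide synthesis, was at -3.02 and -0.86. Sdr9c7, a dehydrogenase that acts on these ceramides, was at -2.76 and -0.70, and the lipoxygenase gene Alox12b at -2.44 and -0.74. After trend subtraction 9 of the 15 genes were at least 2-fold lower, beside 4.95% of all genes, and the median was -1.05.

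Of 18 plakin and desmosomal genes, 6 were at least 2-fold below TNF KO in cFLIP KO, a share no higher than the 36.6% of the genes as bright, with a median of -0.95 that was -0.18 after trend subtraction, and 1 was in the double KO. Dsg1a and Dsc1, desmosomal cadherins of the upper layers, were at -2.21 and -2.17, and Cdsn, which encodes corneodesmosin, at -2.18. Partners and regulators of transglutaminases numbered 21, of which 10 were at least 2-fold below TNF KO in cFLIP KO but none was in the double KO. The count of 10 is not far above the 36.6% of the genes as bright. The medians were -0.96 and -0.09. Among the 10 were the vitamin D receptor gene Vdr at -2.35, the differentiation factor genes Grhl1 at -2.23 and Klf4 at -2.10, and Zfp750 at -1.58. After trend subtraction 4 of the 21 were at least 2-fold lower, beside 4.95% of all genes, and the median was -0.19.

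None of the 5 other transglutaminase family genes was 2-fold different from TNF KO on either array. Tgm4 and Tgm7 were at 3.17 and 3.75 on every array, and Tgm6, next but one to Tgm3 on chromosome 2, came just short of 2-fold, at 4.22, 5.22 and 4.10 in TNF KO, cFLIP KO and the double KO. F13a1, which encodes the A subunit of coagulation factor XIII and is made by macrophages, was at 7.72, 6.92 and 8.34. Unlike Tgm2, it was below TNF KO in cFLIP KO.

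**Figure D5:**
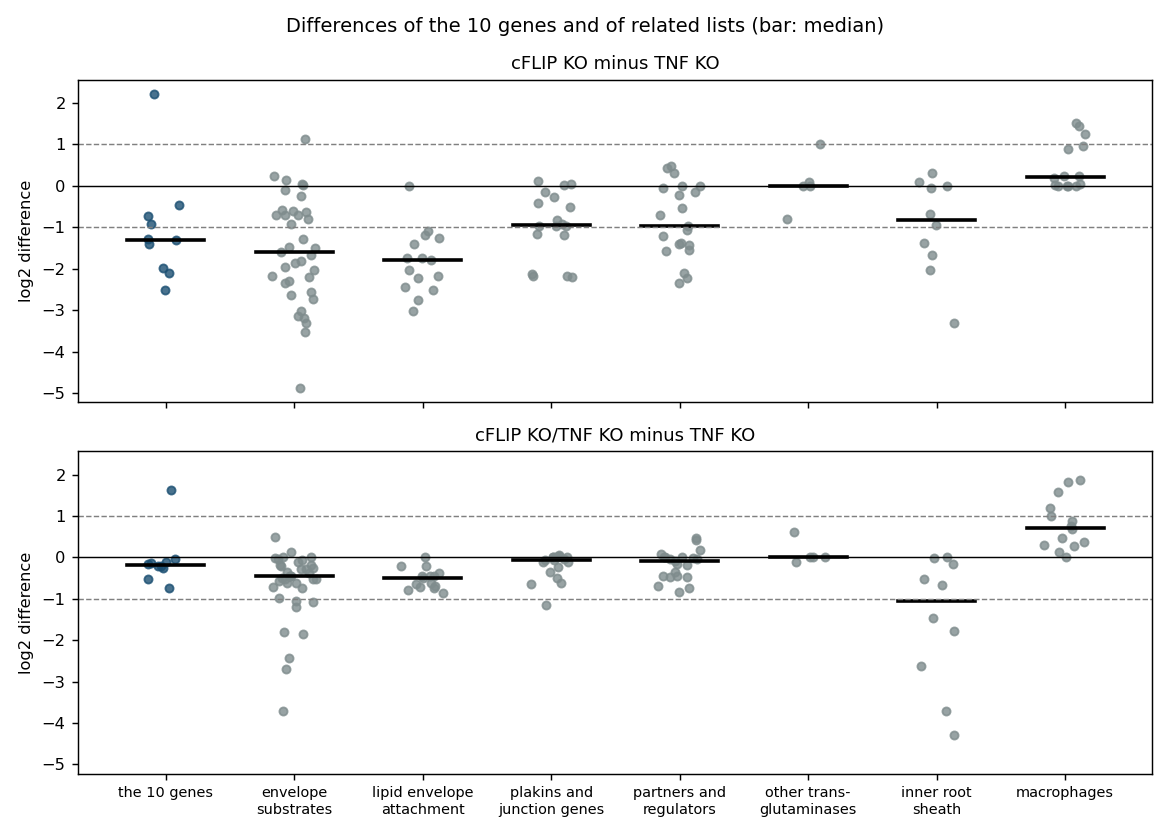
Log2 difference from TNF KO (vertical axes) of each measured gene in the 10 genes, the 5 related lists and the inner root sheath and macrophage markers, for cFLIP KO (top) and the double KO (bottom), with bars at the medians and dashed lines at 2-fold. The 10 genes have medians of -1.29 and -0.18, and the inner root sheath markers are the list whose lower median lies in the double KO (-1.06).

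The epidermal label was checked against keratinocyte markers. Krt5 and Krt14, keratins of the basal layer, were between 12.50 and 13.02 on the 3 arrays, whereas Krt2, a suprabasal keratin, was at 3.99, 4.13 and 4.13, below the median signal over genes of 4.23. Of 10 suprabasal markers, 2 of which (Krtdap and Sbsn) belong to the 10 genes, 6 were at least 2-fold below TNF KO in cFLIP KO. That stands beside 9.15% of all genes and 36.6% of the genes as bright as the 10. The mean log2 signal of the suprabasal markers was 11.18, 9.79 and 10.96 in TNF KO, cFLIP KO and the double KO. Of 8 basal markers 1 was at least 2-fold lower, near the share of all genes and below that of the bright genes. The basal mean was 9.96 in TNF KO and 9.42 in cFLIP KO. The median differences were -1.40 for the suprabasal and -0.46 for the basal markers. After trend subtraction they were -0.60, with 3 markers at least 2-fold lower beside 4.95% of all genes, and 0.30. Krt1, a suprabasal keratin, differed by -1.49 in cFLIP KO (-0.68 after trend subtraction) and by -0.26 in the double KO, near the medians of the 10 genes. Other suprabasal markers did not. Krt10 was at -0.70 in cFLIP KO (0.11 after trend subtraction) and Lypd3 at -0.68 (0.10). Krt77 was above TNF KO in the double KO, at 0.41. The part of suprabasal cell number in the result was not tested.

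The genes whose pair of differences from TNF KO lay nearest to the median pair of the 10 (-1.29 and -0.18) were Ak3, Atf6, Fdps, Cbll1 and Srp72, by Euclidean distance over 2 differences from 3 arrays, among genes with at least median signal. Their distances ran from 0.017 to 0.029. Ak3 encodes a mitochondrial adenylate kinase, Atf6 a transcription factor of the endoplasmic reticulum stress response and Fdps an enzyme of isoprenoid synthesis. None is an envelope gene. The search picked the closest of many other genes, so near matches were bound to be found, and nothing is concluded from them.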

How the data were processed

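RNA of isolated epidermis, pooled over animals of 1 genotype, was hybridised to 3 Affymetrix Mouse Gene 2.0 ST arrays. The number of animals per pool is given as 4 in 1 source and as 3 to 6 in another, and tamoxifen as 3 days or 3 to 5 days. Skin was heated to 60 °C to separate epidermis from dermis. The deposited values were log2 signals, made by the authors with robust multiarray background correction and quantile normalization (RMA, version not given in the sources used here) on a custom chip definition by ENTREZ gene (version 22). Such normalization forces the arrays toward 1 distribution, yet their spreads still differed. The authors' analysis of variance could not be repeated, since single arrays leave no residual error.

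Each array held 24973 values, and the 958 without a symbol in the platform annotation were dropped. Where a symbol had several probe sets, as 4 did, their mean was used. The log2 values were subtracted for 3 comparisons and genes past 2-fold were counted. Python 3.11.15, numpy 2.4.6, pandas 2.3.3, matplotlib 3.10.9 and statsmodels 0.14.6 were used. In an alternative, each difference was taken relative to a lowess trend (share 0.3, 3 iterations) on mean signal. The counting was tested on simulated data. The text named all 10 genes, up to 4 genes per list with the largest difference between cFLIP KO and TNF KO, chromosomal neighbours, the 5 genes nearest in pattern and the targeted genes, and other list members were picked after their values were seen. The members and the lists were chosen with earlier results of these data known. Gene order and promoters came from RefSeq tables (GRCm38.p6). Precision is limited by the number of arrays, which have no read depth. Alternatives were other fold thresholds, scaling by Actb or by 8 measured reference genes, repeated quantile normalization, a floor, a filter on dim genes, the brightest probe set and the mean in place of the median.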

Additional observations from a re-analysis of the deposited data

How the results depend on the processing

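As deposited, 6 of the 10 genes were at least 2-fold below TNF KO in cFLIP KO. The count was 3 at a 3-fold threshold and 3 after lowess trend subtraction, where the median moved from -1.29 to -0.56. Against the double KO the count of 6 became 2 at 3-fold, 3 under Actb scaling, 3 under reference gene scaling and 3 after trend subtraction, where the median moved from -1.10 to -0.44. No gene was at least 2-fold higher in that comparison as deposited, and 1, Tgm2, was past the threshold at 1.5-fold, under Actb scaling, after trend subtraction and after repeated quantile normalization. For the double KO against TNF KO the count of 0 lower became 1 at 1.5-fold and 2 (Tgm3 and Tgm5) under Actb scaling, which shifts every difference there by -0.52, since Actb was 12.39 in the double KO and 11.87 in TNF KO. Evpl, Sbsn and Dmkn were the genes that lost 2-fold under trend subtraction, and Evpl and Sbsn did so after repeated quantile normalization. Tgm5, Ppl, Scel and Tgm2 were past 2-fold against TNF KO in cFLIP KO under the Actb, reference gene, trend and quantile settings. Among smaller differences, Tgm1 and Tgm3 in cFLIP KO against TNF KO changed sign after trend subtraction (0.02 and 0.29). Against the double KO, Tgm1 in cFLIP KO was at -0.53 as deposited and 0.16 after trend subtraction. It was at 0.03 under Actb scaling and 0.05 after repeated quantile normalization. Scel in the double KO against TNF KO went from -0.03 to 0.05 after repeated quantile normalization. The floor, the dim gene filter and the brightest probe set could move no count. All 10 genes lay above the floor and at or above the median signal, and none had several probe sets. The mean replaced only the median and so could move no count either. Limiting the background to genes as bright as the 10 was chosen after seeing the data. No paired analysis was possible because each genotype has 1 array, and no replicate could be left out. The causes of these shifts were not tested.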

Other observations

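The order seen for Tgm3, highest in TNF KO and lowest in the double KO, was shared by 6 of the 37 envelope substrates, namely Tchh, Tchhl1, Sprr2d, Lce3a, Lce3c and Lce3d, which were picked after their values were seen. Tchh, the substrate of Tgm3 in the inner root sheath, also counts among the markers of that sheath.

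Adipocyte markers, from fat that lies beneath the dermis, were higher in the double KO than in TNF KO for 7 of 10 genes by at least 2-fold, beside 0.629% of all genes, with a mean log2 signal of 5.17 (TNF KO), 4.89 (cFLIP KO) and 6.54 (double KO). The mean over 10 dermal fibroblast markers was 8.54, 8.37 and 9.01, and that over 14 neutrophil markers 4.91, 5.69 and 5.02. None of the 10 envelope genes had its highest signal in the double KO. The share of all genes highest there was not counted, so this count has no background.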
